A study of Mus musculus with 7 samples.

Results

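The genes described here make, sense, take up, move and export cholesterol in lymphatic endothelium, the lining of the vessels that drain tissue fluid. They are 30 genes chosen by name out of 26608 entries of a table of raw counts, and all 30 were found under the symbol sought. They comprise 16 synthesis enzymes, 5 genes of sterol sensing, 4 of uptake and transport inside the cell, and 5 of efflux and its control by the liver X receptors (LXR). All 30 passed the filter on low counts.

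The study compared lymphatic endothelial cells of BPC melanomas with those of naive skin, both from the ear pinna of mice, in 4 tumour and 3 naive libraries. The 4 tumour libraries came from mice labelled BrafCA/+; pten l/l; Cre+, replicates 1 and 2 from males and 3 and 4 from females. Naive replicates 1 (both sexes pooled) and 3 (male) came from BrafCA/+; pten l/l; Cre- mice, while the label of naive replicate 2 (female) names that genotype together with Braf+/+; pten l/l Cre+. The pten l/l allele was thus named for all 7 libraries, and Cre+ also for naive replicate 2. The labels do not say which promoter drives Cre, how old the mice were, how the cells were isolated or how many mice went into a library. P-values therefore measure the spread between these libraries, which may be technical in part. A tag in the descriptions, read as the sequencing lane, put tumour replicates 1, 2 and 4 on lane 6, naive replicates 1 and 2 on lane 7, and tumour replicate 3 and naive replicate 3 on lane 8.

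Cholesterol is built from acetyl-CoA through mevalonate and squalene. The transcription factor SREBP-2 switches on the enzymes of that route when the membrane of the endoplasmic reticulum is poor in sterol, and SCAP and the INSIG proteins are its sensors. When sterol is abundant, oxidised sterols activate the LXR receptors, which turn on the exporters ABCA1 and ABCG1. In mice, lymphatic vessels are known as a route by which cholesterol on high density lipoprotein (HDL) leaves the tissues, and the HDL receptor SR-BI, encoded by Scarb1, has been described on their endothelium.

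Total counts per library were 53066074 to 63067314 in tumour and 59839543 to 63153369 in naive skin. Levels are given as CPM, counts per 1000000 of the library size after TMM scaling, and levels of different genes are compared as TPM, which also divides by the length of the gene's exons. The 9 markers of lymphatic endothelium, among them Prox1, Lyve1 and Flt4, summed to 10470 to 13973 CPM in tumour and 12095 to 14860 CPM in naive skin, and none passed the test between the groups. Summed markers of several other cell types stood higher in tumour. The 14 macrophage and other myeloid markers summed to 368, 552, 461 and 647 CPM in tumour replicates 1 to 4. In naive skin they summed to 166 to 231 CPM, and Ptprc, Emr1 and Itgam had no count. Mrc1, at 50.9 to 73.2 CPM, and Cd14, at 76.4 to 106 CPM, made up most of the naive sum. Of the myeloid markers, 4 of 11 tested (Emr1, C1qc, Lyz2 and Mrc1) rose. The 8 fibroblast markers summed to 1732 to 18220 CPM in tumour, highest in replicate 4, against 605 to 1187 CPM in naive skin, and 2 of 8 tested (Pdgfra and Mfap5) rose. The 9 melanocyte and melanoma markers summed to 12.2 to 119 CPM in tumour and 1.203 to 5.42 CPM in naive skin, and 2 of 5 tested (Dct and Sox10) rose; Slc45a2 was at 0 in tumour and Mlana in naive skin. The 6 keratinocyte markers summed to 24.7 to 111 CPM in tumour and 2.36 to 40.4 CPM in naive skin, the 5 of blood endothelium to 748 to 927 and 544 to 657 CPM, and the 4 mural markers to 6.10 to 111 and 0.0687 to 3.85 CPM; none of these 3 lists had a gene past the test, Dsg3 was at 0 in both groups, and Rgs5 and Acta2 were at 0 in naive skin. In the blood endothelium list only Emcn was lower, at 72.9 to 132 CPM in tumour against 180 to 235 CPM in naive skin. Plvap held most of that list's sum, with 556 to 704 CPM in tumour and 323 to 459 CPM in naive skin. The 4 adipocyte markers summed to at most 0.0166 CPM in tumour and 0.0519 CPM in naive skin. Adipoq, Plin1 and Lep were at 0 counts in all 7 libraries. The part of these cells in the results below was not tested. Fewer cells of a type and less RNA per cell cannot be told apart in such libraries.

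Promoter sequences show what some of these genes share ahead of their start sites. In the RefSeq table of build GRCm38.p6, 23 of the 30 genes had a promoter, and Fdps, Fdft1, Sqle, Abcg1, Scarb1, Npc1 and Stard4 had none. In the 250 bases before the start, the CCAAT box (CCAAT or, on the other strand, ATTGG), which binds the factor NF-Y, a known partner of SREBP, stood in 17 of these 23 genes and in 12 of the 13 synthesis enzymes among them, Acat2 being the one without. It stood in 37.5% of all 27025 genes of the table. The sterol response element searched, TCACNCCAC on either strand, was found in the Hmgcs1 promoter alone among the 23, and in 1.22% of all genes. The direct repeat that LXR receptors bind, 2 copies of AGGTCA parted by any 4 bases, was found in none of the 23 and in 0.0148% of all genes. No motif was contained in another. The 3 promoters printed belong to the members with an unadjusted p under 0.05, a single start in the table and no annotated exon in the 250 bases, which are the synthesis genes Hmgcs1 and Ebp and the exporter gene Abca1. Each runs from 5′ to 3′ on the gene's strand and ends at the base before the start, and capitals mark the sterol response element (TCACCCCAC) and the CCAAT boxes (ATTGG).
Hmgcs1 (chr13:119690101-119690350, plus strand): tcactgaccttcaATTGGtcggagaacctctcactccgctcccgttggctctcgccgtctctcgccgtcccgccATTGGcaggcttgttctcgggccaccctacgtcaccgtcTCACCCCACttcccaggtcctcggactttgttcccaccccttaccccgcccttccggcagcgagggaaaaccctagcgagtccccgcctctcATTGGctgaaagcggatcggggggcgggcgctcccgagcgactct
Ebp (chrX:8193513-8193762, minus strand): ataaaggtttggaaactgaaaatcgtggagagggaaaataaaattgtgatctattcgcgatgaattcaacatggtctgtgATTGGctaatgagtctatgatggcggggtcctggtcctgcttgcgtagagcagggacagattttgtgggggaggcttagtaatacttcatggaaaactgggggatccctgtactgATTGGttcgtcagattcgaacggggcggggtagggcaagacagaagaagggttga
Abca1 (chr4:53159896-53160145, minus strand): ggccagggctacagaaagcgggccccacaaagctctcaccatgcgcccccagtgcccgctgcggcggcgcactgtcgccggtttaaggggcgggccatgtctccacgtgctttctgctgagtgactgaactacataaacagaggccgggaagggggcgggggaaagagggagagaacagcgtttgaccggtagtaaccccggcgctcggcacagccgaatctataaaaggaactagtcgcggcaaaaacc
The Hmgcs1 element begins at position -137 from the start, with CCAAT boxes at -237, -176 and -45. The Ebp window holds CCAAT boxes at -170 and -55, and the Abca1 window holds none of the motifs searched. A match describes the letters and does not show that a factor binds there. The search allowed no mismatch to the letters given, so a window without a match may hold a site that departs from them. For the LXR repeat, so rare in all genes, finding none among the members says little.

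Setting tumour against naive skin shows how cholesterol genes stood in lymphatic endothelium inside a melanoma. The HDL receptor gene Scarb1 rose in tumour, to 49.6 ± 16.3 CPM (SD, n = 4) against 18.1 ± 1.53 CPM (SD, n = 3) in naive skin, and was the 1 member of 30 that passed the test. Of the 16 synthesis enzymes, 14 had a log2 fold change above 0 and 2 below, with a median of 0.72, while none passed. Of the 5 efflux and LXR genes, 4 had a log2 fold change below 0, with a median of -0.34, and none passed. Over all 13453 tested genes the median log2 fold change was 0.04, and 52.5% of them had a value above 0.

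Read against all tested genes, 1 member of 30 called higher stands beside 0.899% of genes called higher, and 0 of 30 called lower beside 0.803% called lower, 1.70% in both directions (quasi-likelihood test of edgeR, p adjusted by Benjamini-Hochberg over all tested genes, under 0.05). At an unadjusted p under 0.05 in the same fit, 9 members were higher, beside 9.10% of all tested genes, and 2 were lower, beside 7.83%. In CPM, all tumour libraries stood above all naive ones for 5 members, beside 9.57% of tested genes, and all tumour libraries below all naive ones for 2 members, beside 8.46%, 18.0% in both directions. Among the 16 synthesis enzymes, 6 were higher at an unadjusted p under 0.05 and 0 were lower, and 4 did not overlap. DESeq2 called 5 members, Hmgcs1, Sqle, Nsdhl and Scarb1 higher and Nr1h3 lower, beside 6.74% of its genes higher and 4.03% lower, 10.8% in all. Limma-voom called 2, Scarb1 higher and Nr1h3 lower beside 0.736% of genes higher and 1.26% lower. The 229 calls over all genes came to 7, 33 and 25 when naive replicate 1, 2 or 3 was left out in turn, and to 127 and 102 when tumour replicate 3 or 4 was.

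**Figure D1:**
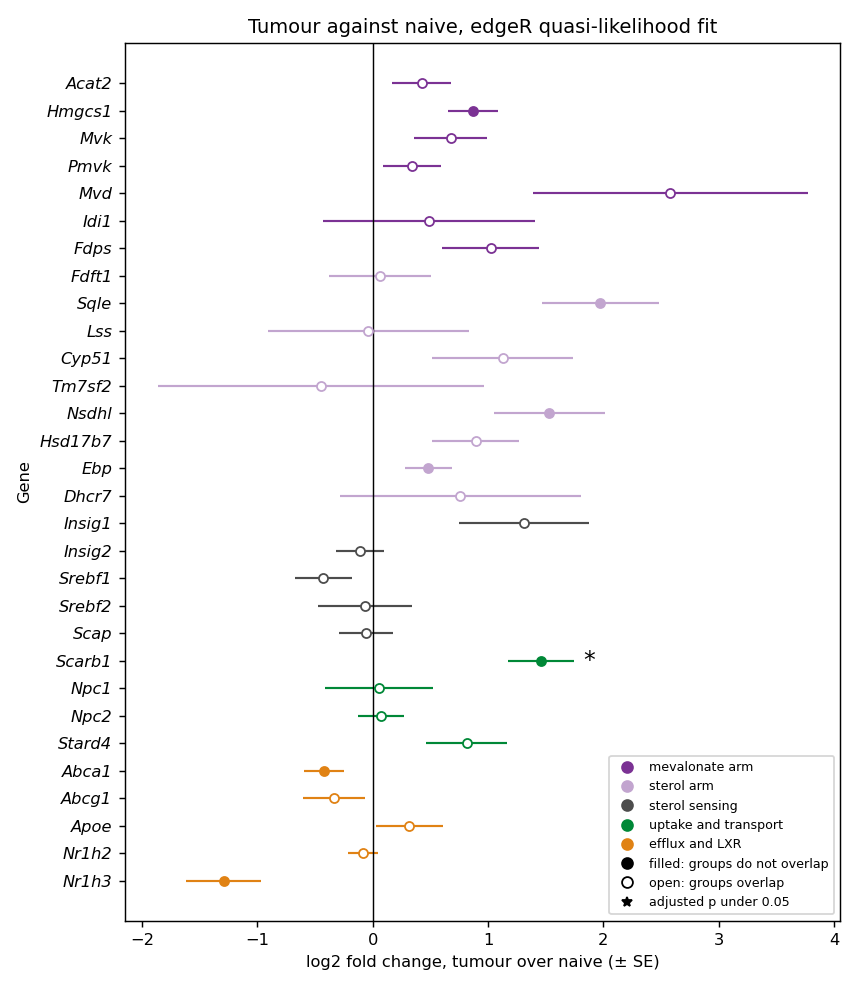
Log2 fold change of each gene, tumour over naive, with its SE from the edgeR fit of 4 tumour and 3 naive libraries; colours mark roles, filled points mark groups whose CPM do not overlap and the star marks an adjusted p under 0.05. The synthesis enzymes lie mostly right of 0, with Mvd at 2.58 and Sqle at 1.97, Scarb1 alone carries the star, and Nr1h3 lies lowest at -1.29.

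Scarb1 encodes SR-BI, the receptor that takes up cholesterol esters from HDL and also passes cholesterol between cells and HDL (chromosome 5, 125277087 to 125341094, minus strand, in GRCm38). It had 43.8, 34.3, 48.0 and 72.5 CPM in tumour replicates 1 to 4, against 16.9, 17.5 and 19.8 CPM in naive replicates 1 to 3. Every tumour library lay above every naive library, and tumour replicate 4 was the highest. That library also had the highest fibroblast, myeloid and melanocyte marker sums and the lowest lymphatic one. The part of those cells was not tested. The log2 fold change was 1.46 (SE 0.28, adjusted p = 0.0454). The call was lost when any single library other than tumour replicate 2 was left out. The adjusted p was 0.0672, 0.0436, 0.0864 and 0.0769 with tumour replicate 1, 2, 3 or 4 left out, and 0.164, 0.136 and 0.135 with naive replicate 1, 2 or 3 left out, while the log2 fold change was 1.22 to 1.601. The replicate number as a block gave 1.21 (adjusted p = 0.221 in edgeR). No naive library shares the number of tumour replicate 4, so that the block leaves this library out of the group comparison. Lane as a term gave 1.28 (adjusted p = 0.601 in edgeR). Over all 18 alternatives the adjusted p was 7.53e-05 to 0.601, and under 0.05 in 9.

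The other genes of uptake and transport did not pass. Stard4, which encodes a protein that carries sterol between membranes inside the cell, had 56.1, 23.4, 49.3 and 43.2 CPM in tumour against 16.1, 25.2 and 32.1 CPM in naive skin. Tumour replicate 2 fell inside the naive range and the other tumour libraries lay above it (log2 fold change 0.81, SE 0.35, adjusted p = 0.289). Npc2, the soluble protein that picks up cholesterol in the lysosome, averaged 113 ± 13.7 CPM (SD, n = 4) in tumour and 107 ± 26.2 CPM (SD, n = 3) in naive skin (log2 fold change 0.07, SE 0.20). Npc1, the membrane protein to which NPC2 hands its cholesterol, had 16.1, 19.9, 9.88 and 42.0 CPM in tumour and 16.3, 21.7 and 25.5 CPM in naive skin. Its tumour libraries spanned the naive range on both sides, and its log2 fold change of 0.05 (SE 0.47) turned to -0.47 without tumour replicate 4.

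The mevalonate arm runs from acetyl-CoA to farnesyl pyrophosphate, and all 7 of its enzymes had a log2 fold change above 0, from 0.34 for Pmvk to 2.58 for Mvd, with a median of 0.67. Hmgcs1 encodes the cytosolic HMG-CoA synthase (chromosome 13, 119690379 to 119708260), and its promoter is the one with the sterol response element. It had 75.0, 55.9, 100.5 and 83.0 CPM in tumour against 41.0, 45.9 and 42.3 CPM in naive skin. The naive libraries lay close together and all tumour libraries lay above them. The log2 fold change was 0.87 (SE 0.22), with an unadjusted p of 0.00341 in edgeR and an adjusted p of 0.0916. An antisense gene model, Gm48342, shares 12.1% of the Hmgcs1 exon bases, and the library kit does not mark strand.

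Fdps and Mvd had larger differences in that arm, with overlapping groups. Fdps, which encodes farnesyl pyrophosphate synthase, had 25.5, 15.7, 47.1 and 55.4 CPM in tumour against 18.4, 17.5 and 17.1 CPM in naive skin. Tumour replicate 2 lay below all naive libraries, and tumour replicates 3 and 4 lay far above them (log2 fold change 1.02, SE 0.42, adjusted p = 0.263). Without tumour replicate 4 the value was 0.74. The gene model Gm43738 lies on the same strand and covers 26.7% of the Fdps exon bases, so that reads of this stretch cannot be assigned to one of them.

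Mvd encodes the decarboxylase that makes isopentenyl pyrophosphate. It had 3.59, 9.001, 19.1 and 10.3 CPM in tumour against 0.0515, 3.91 and 1.30 CPM in naive skin, where replicate 1 held 3 counts. Tumour replicate 1 lay below naive replicate 2, and the other tumour libraries lay above all naive ones (log2 fold change 2.58, SE 1.19, adjusted p = 0.320). It was 2.01 to 3.96 when single libraries were left out, lowest without naive replicate 1.

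The rest of the mevalonate arm differed less. Acat2, the thiolase of the first step, had a log2 fold change of 0.42 (SE 0.26), the mevalonate kinase gene Mvk 0.67 (SE 0.32), the phosphomevalonate kinase gene Pmvk 0.34 (SE 0.25) and the isomerase gene Idi1 0.49 (SE 0.92), with adjusted p-values of 0.331 to 0.863. Mvk had 21.3, 27.1, 14.5 and 18.8 CPM in tumour, replicate 3 lying within the naive range, against 10.3 to 15.2 CPM in naive skin. Idi1 was low throughout, with 2.0 to 3.54 CPM in tumour and 1.07 to 2.68 CPM in naive skin.

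**Figure D2:**
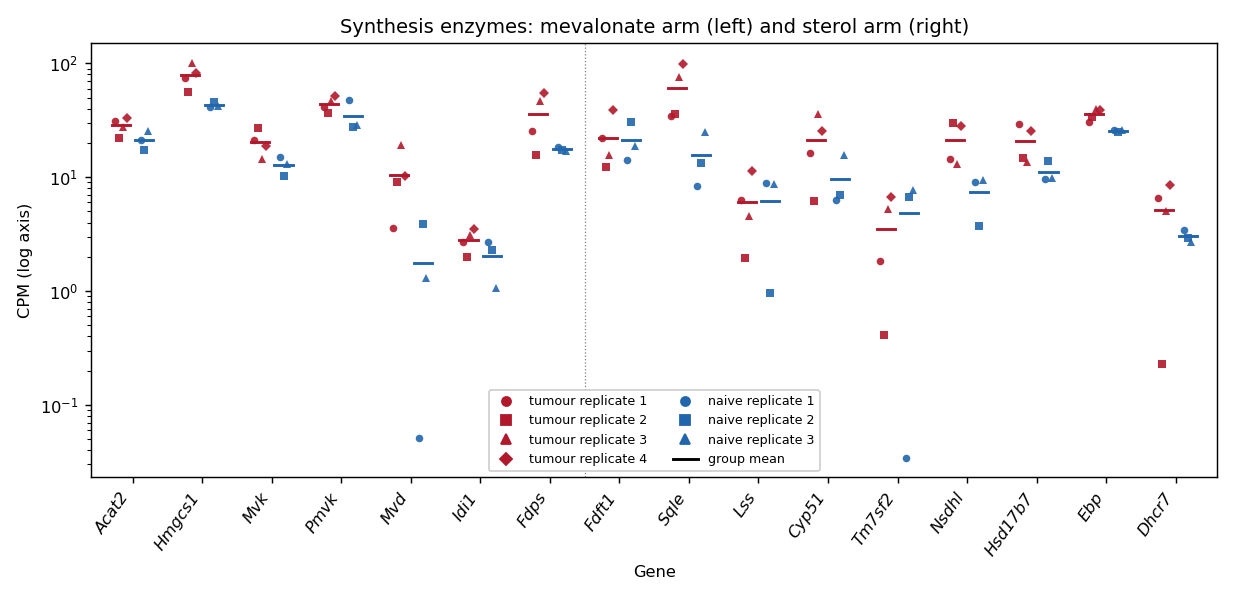
CPM of the 16 synthesis enzymes on a log axis, 1 point per library, with a line at each group mean; tumour is in red at the left of each pair and naive in blue at the right. The groups do not overlap for Hmgcs1, Sqle, Nsdhl and Ebp. Single libraries stand far below their group for Mvd and Tm7sf2 (naive replicate 1), Lss (naive replicate 2), and Dhcr7 and Tm7sf2 (tumour replicate 2).

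The sterol arm turns farnesyl pyrophosphate into squalene and then cholesterol, and 7 of its 9 enzymes had a log2 fold change above 0, with a median of 0.76. Sqle encodes squalene epoxidase, a rate-limiting enzyme of the route after squalene (chromosome 15, 59315077 to 59331192). It had 34.2, 36.2, 76.3 and 97.8 CPM in tumour against 8.45, 13.3 and 25.0 CPM in naive skin. Both groups spread widely, and no tumour library fell as low as the highest naive one. The log2 fold change was 1.97 (SE 0.51, unadjusted p = 0.00394 in edgeR, adjusted p = 0.0961).

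Nsdhl and Ebp also did not overlap between the groups. Nsdhl, a sterol dehydrogenase gene of the X chromosome (72918557 to 72958514), had 14.6, 30.1, 13.01 and 28.1 CPM in tumour against 9.05, 3.70 and 9.49 CPM in naive skin. Tumour replicates 2 and 4 lay about level, above tumour replicates 1 and 3, which were closer to the naive libraries (log2 fold change 1.53, SE 0.48, adjusted p = 0.156). Ebp, the sterol isomerase gene (X chromosome, 8185329 to 8193512), had 30.6, 33.6, 39.5 and 39.1 CPM in tumour against 25.8, 24.9 and 26.0 CPM in naive skin. The naive libraries nearly coincided and the tumour libraries lay above them by a small step (log2 fold change 0.48, SE 0.20, adjusted p = 0.277).

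Hsd17b7 and Cyp51 overlapped between the groups. Hsd17b7, a sterol ketoreductase gene, had 29.1, 14.6, 13.6 and 25.5 CPM in tumour against 9.72, 13.9 and 9.87 CPM in naive skin (log2 fold change 0.89, SE 0.37, adjusted p = 0.273). Tumour replicate 3 lay just below naive replicate 2. Cyp51, the lanosterol demethylase gene, had 16.3, 6.13, 36.2 and 25.5 CPM in tumour against 6.31, 6.91 and 15.7 CPM in naive skin, with tumour replicate 2 below all naive libraries (log2 fold change 1.13, SE 0.61, adjusted p = 0.411).

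The other 4 enzymes of the sterol arm overlapped between the groups. Fdft1, squalene synthase, had a log2 fold change of 0.06 (SE 0.45), and 18.3% of its exon bases are shared with Ctsb on the other strand. Lss, lanosterol synthase, had 6.34, 1.97, 4.57 and 11.2 CPM in tumour and 8.92, 0.955 and 8.69 CPM in naive skin (log2 fold change -0.04, SE 0.87). Tm7sf2, a sterol reductase gene, had 0.410 to 6.67 CPM in tumour, and in naive skin 0.0344 CPM in replicate 1 (2 counts) beside 6.76 and 7.71 CPM; its log2 fold change was -0.45 (SE 1.42), and 12.1% of its exon bases are shared with Vps51 on the same strand. Dhcr7, the last reductase of the route, had 6.604, 0.230, 5.06 and 8.57 CPM in tumour against 3.44, 2.92 and 2.71 CPM in naive skin. Tumour replicate 2 held 14 counts of Dhcr7, while the other tumour libraries lay above all naive ones (log2 fold change 0.76, SE 1.05).

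The synthesis enzymes did not stand equally high in all tumours. Tumour replicate 4 was the highest of the 7 libraries for 8 of the 16 enzymes, tumour replicate 3 for 4, tumour replicate 2 for 2, and tumour replicate 1 and naive replicate 3 for 1 each. Tumour replicate 2 was the lowest of the 4 tumour libraries for 10 of the 16, and the lowest of all 7 for 4. The lowest of all 7 was a naive library for the other 12. Summed over the 16 enzymes, CPM were 362, 304, 467 and 538 in tumour replicates 1 to 4, against 232, 229 and 253 in naive replicates 1 to 3. The median log2 CPM of the 16 enzymes was 4.44, 3.92, 4.11 and 4.74 in tumour replicates 1 to 4. In naive replicates 1 to 3 it was 3.23, 3.55 and 3.84. Genes with a count numbered 14004, 13842, 14228 and 14670 in tumour replicates 1 to 4, the order of the sums but not of the medians. In naive replicates 1 to 3 they numbered 13441, 14000 and 14351, the order of the medians but not of the sums. A relation between genes with a count and these sums or medians was not tested. Tumour replicate 4 was also the library with the highest fibroblast, myeloid and melanocyte marker sums and the lowest sum of lymphatic markers, and the part of those cells was not tested. Without it, 13 of the 16 enzymes had a log2 fold change above 0, and 3 of them (Hmgcs1, Sqle and Nsdhl) an unadjusted p under 0.05 in edgeR, against 6 with it. Whichever of the 7 libraries was left out, Hmgcs1, Sqle and Nsdhl were at such a p. With the replicate block Nsdhl was not, the enzymes at such a p being Hmgcs1, Mvd and Sqle, and with lane as a term Hmgcs1 alone was. Of all 13453 tested genes, 1224 were higher at such a p in the fit without these terms. There were 774 with the replicate block and 495 with lane as a term.

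**Figure D3:**
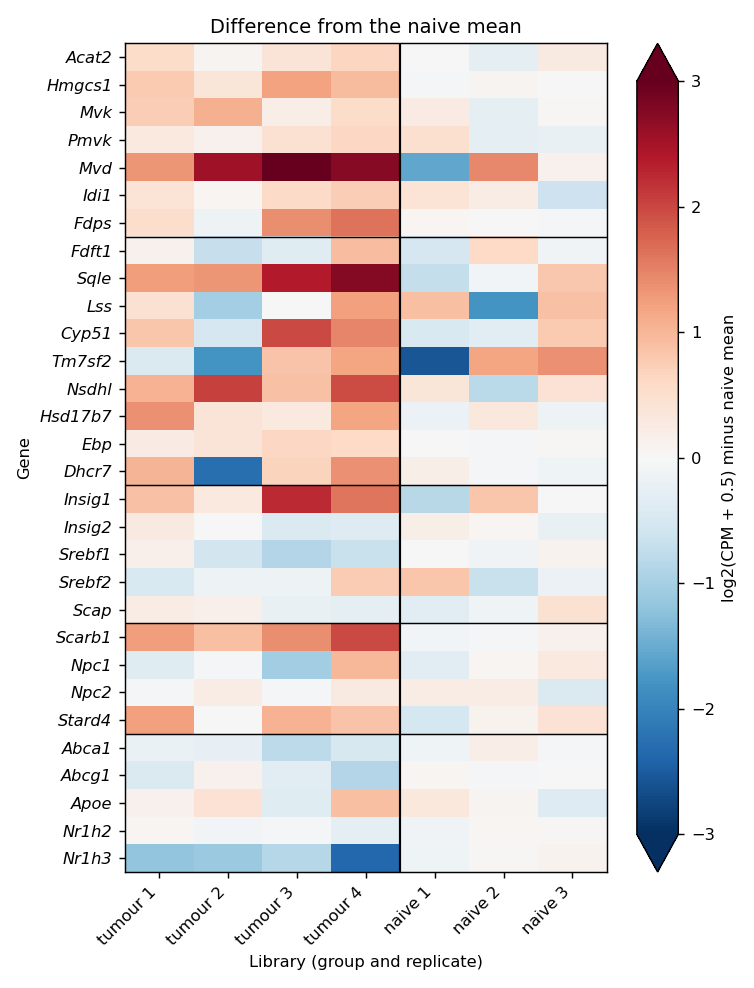
Log2(CPM + 0.5) of each gene in each library minus the mean of the 3 naive libraries, tumour libraries at the left; horizontal lines part the mevalonate arm, the sterol arm, sterol sensing, uptake and transport, and efflux and LXR, and colours are capped at 3. Most synthesis rows are red in the tumour columns, most of all in replicates 3 and 4, while the Nr1h3 row is blue in all 4.

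Sterol sensing genes showed 1 member of 5 with a log2 fold change above 0 and a median of -0.06. That member was Insig1, which encodes a sterol-responsive protein that holds SCAP back and is itself a known SREBP target. It had 18.7, 12.2, 48.7 and 31.2 CPM in tumour against 5.38, 18.1 and 9.92 CPM in naive skin. Tumour replicates 3 and 4 were high, as for Sqle, Fdps and Cyp51, and tumour replicate 2 lay below naive replicate 2 (log2 fold change 1.31, SE 0.56, adjusted p = 0.284). Its relative Insig2, which is less dependent on sterol, averaged 113 ± 27.0 CPM (SD, n = 4) in tumour and 122 ± 17.0 CPM (SD, n = 3) in naive skin.

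The transcripts of the SREBP factors themselves did not pass either. Srebf2, which encodes SREBP-2, had 37.4, 46.7, 46.3 and 88.0 CPM in tumour and 92.9, 32.3 and 46.1 CPM in naive skin (log2 fold change -0.06, SE 0.41). Srebf1, which encodes SREBP-1 and is a known LXR target in liver, had 121, 74.4, 58.6 and 68.6 CPM in tumour against 108, 101 and 117 CPM in naive skin. Tumour replicates 2, 3 and 4 lay below all naive libraries and tumour replicate 1 above them (log2 fold change -0.43, SE 0.25, adjusted p = 0.443). Scap had a log2 fold change of -0.06 (SE 0.23), with 60.7 to 85.2 CPM in tumour and 58.7 to 101 CPM in naive skin.

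**Figure D4:**
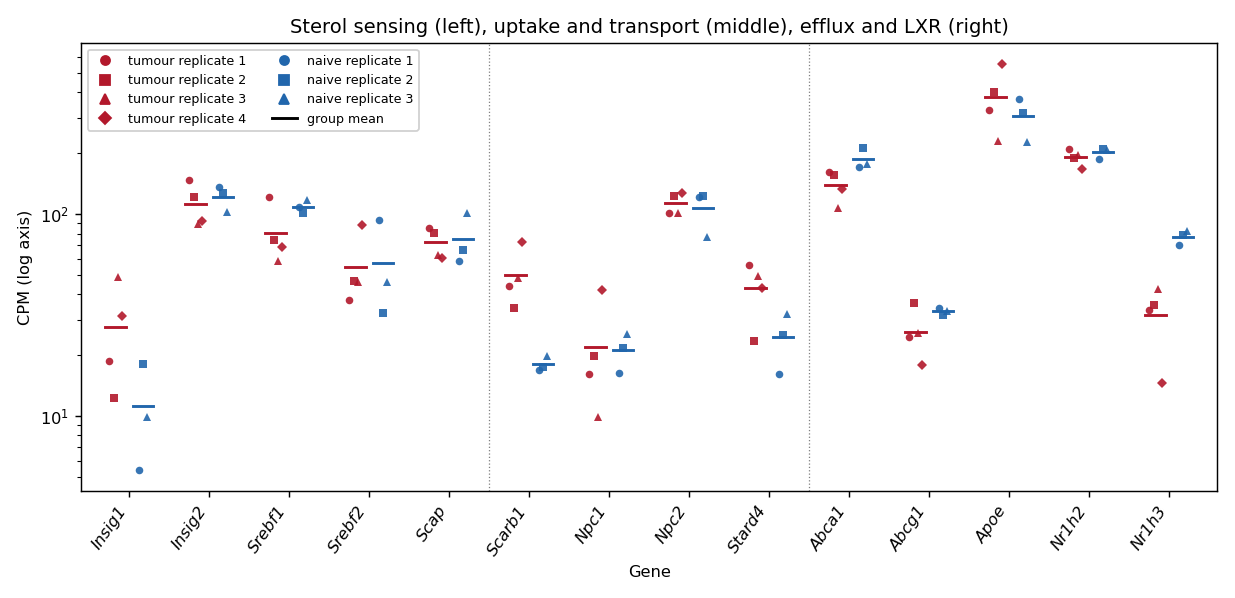
CPM of the genes of sterol sensing, uptake and transport, and efflux and LXR on a log axis, 1 point per library, with a line at each group mean; tumour is in red at the left of each pair and naive in blue at the right. Scarb1 lies higher in all 4 tumour libraries, Abca1 and Nr1h3 lie lower in all 4, and the groups of the other genes overlap.

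Among the efflux and LXR genes, Nr1h3 and Abca1 did not overlap between the groups. Nr1h3 encodes LXR-alpha (chromosome 2, 91184061 to 91202834), and it had 33.5, 35.4, 42.3 and 14.6 CPM in tumour against 70.1, 78.6 and 82.4 CPM in naive skin. All tumour libraries lay well below the lowest naive one. The lowest was tumour replicate 4, which also had the highest fibroblast, myeloid and melanocyte marker sums and the lowest lymphatic one. The part of those cells was not tested. The log2 fold change was -1.29 (SE 0.32, unadjusted p = 0.00338 in edgeR, adjusted p = 0.0913), and it stayed at -1.46 to -1.05 when single libraries were left out, with adjusted p-values of 0.0603 to 0.243. DESeq2 and limma-voom called it lower, with adjusted p-values of 0.00519 and 0.0469. Nr1h2, which encodes the widely expressed LXR-beta, averaged 190.4 ± 17.9 CPM (SD, n = 4) in tumour and 202 ± 12.5 CPM (SD, n = 3) in naive skin (log2 fold change -0.08, SE 0.13, adjusted p = 0.821). The difference between the fold changes of the 2 LXR genes was not tested.

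Abca1 exports cholesterol to lipid-poor apolipoprotein A-I (chromosome 4, 53030787 to 53159895). It had 161, 156, 107 and 133 CPM in tumour against 170.4, 212 and 177 CPM in naive skin. The tumour libraries lay below the naive ones, tumour replicate 1 by a small margin (log2 fold change -0.42, SE 0.17, unadjusted p = 0.0372 in edgeR, adjusted p = 0.258). Abcg1, which exports cholesterol to HDL, had 24.5, 36.4, 25.9 and 17.8 CPM in tumour against 34.3, 31.7 and 33.1 CPM in naive skin. Tumour replicate 2 lay above the naive libraries and the other tumour libraries below them (log2 fold change -0.34, SE 0.27, adjusted p = 0.612).

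Apoe, the apolipoprotein of exported cholesterol that macrophages and melanoma cells also make, was the exception in direction. It had 327, 402, 231 and 555 CPM in tumour and 370.2, 315 and 227 CPM in naive skin (log2 fold change 0.32, SE 0.29, adjusted p = 0.675). Tumour replicate 4 was highest and replicate 2 next, for Apoe as for the summed myeloid and melanocyte markers, while replicates 1 and 3 stood in the opposite order (1 above 3 for Apoe, 3 above 1 for both sums). The part of those cells was not tested. Its log2 fold change was 0.08 without tumour replicate 4.

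Per exon length, Apoe stood highest of the 30 genes in both groups, at 675 ± 293 TPM (SD, n = 4) in tumour and 487 ± 88.4 TPM (SD, n = 3) in naive skin. Nr1h2 came next at 212 ± 8.67 and 209 ± 23.5 TPM, and Insig2 after it at 121 ± 20.9 and 121 ± 9.75 TPM. Nr1h3 ranked 10 of 30 in tumour, at 46.3 ± 16.6 TPM (SD, n = 4), and 4 of 30 in naive skin, at 106 ± 15.0 TPM (SD, n = 3), where it did not differ from Insig2 beyond their spread. Sqle ranked 11 in tumour, at 42.7 ± 25.0 TPM (SD, n = 4), and 20 in naive skin, at 9.94 ± 6.04 TPM (SD, n = 3). Hmgcs1 ranked 6 in tumour, at 64.8 ± 17.9 TPM, and 11 in naive skin, at 32.4 ± 2.77 TPM. Idi1, Lss, Tm7sf2 and Dhcr7 were at or below 3.39 TPM on average in tumour and 3.91 TPM in naive skin, the lowest 4 of the set in tumour; in naive skin Mvd, at 3.27 TPM, was also among the lowest 5.

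Genes of the same pathways outside the 30 were read in the same fit. Of 43 other genes of cholesterol synthesis, uptake, esterification, transport and efflux, 41 were tested, 0 passed (the smallest adjusted p was 0.0977), 20 had a log2 fold change above 0 and 21 below, and the median was -0.07. At an unadjusted p under 0.05 in edgeR, 3 of the 41 were higher and 5 lower, beside 9.10% and 7.83% of all tested genes. DESeq2 called 3 higher and 3 lower, beside 6.74% and 4.03% of its genes, and limma-voom called 0. The most abundant of them was Gramd1a, which encodes a carrier of cholesterol from the plasma membrane to the endoplasmic reticulum. It had 408, 436, 382 and 322 CPM in tumour against 522, 539 and 603 CPM in naive skin (log2 fold change -0.52, SE 0.13, adjusted p = 0.0977), so that its groups did not overlap. Of the 41, 4 were higher and 3 lower without overlap, beside 9.57% and 8.46% of all tested genes. Lbr, a sterol reductase and lamin receptor gene, and the oxysterol-binding protein gene Osbpl2 had log2 fold changes of -0.64 (SE 0.18) and -0.60 (SE 0.19), and the mitochondrial thiolase gene Acat1 0.14 (SE 0.15).

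Of 10 genes of fatty acid synthesis that are known targets of SREBP-1, 0 passed, 3 had a log2 fold change above 0 and 7 below, and the median was -0.10; at an unadjusted p under 0.05 there were 0 in edgeR, DESeq2 and limma-voom, and 0 calls in the other tools. The smallest adjusted p was 0.375, for the desaturase gene Scd2, which had 145, 99.0, 127 and 110 CPM in tumour against 160, 127 and 171 CPM in naive skin. Acly, the citrate lyase that supplies acetyl-CoA to both routes, averaged 332 ± 48.9 CPM (SD, n = 4) in tumour and 368 ± 39.8 CPM (SD, n = 3) in naive skin (log2 fold change -0.15, SE 0.15). Me1, malic enzyme, and the desaturase gene Scd1 had log2 fold changes of -0.27 (SE 0.34) and -1.31 (SE 1.70).

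Lane 8 was the only lane with both groups, 1 library each, so that its difference has no replicate check. Tumour replicate 3 minus naive replicate 3 gave a median log2 difference of 1.25 for the mevalonate arm, 0.47 for the sterol arm, -0.20 for sterol sensing, 0.51 for uptake and transport and -0.35 for efflux and LXR, beside 0.00 for all tested genes. Over all 7 libraries the medians were 0.67, 0.76, -0.06, 0.44 and -0.34. Within lane 8 Scarb1 stood at 1.28, Sqle at 1.61, Hmgcs1 at 1.25, Nsdhl at 0.45, Insig1 at 2.29, Abca1 at -0.73 and Nr1h3 at -0.96. These 2 libraries also differ in sex, and sex and group cannot be told apart between them.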

How the data were processed

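The authors deposited raw counts per gene, whole numbers with no normalization, and a second table normalized between libraries on a log2 scale by a method no source here states. Trimmomatic 0.38 and build mm10 are named in the submitters' processing notes; aligner, counter and annotation were not given in the sources used here. Per the labels' protocols, the kit was Takara SMART-Seq v4, which does not mark strand. Reads without molecular identifiers are not independent molecules.

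From the count table, 25 of 26608 entries whose symbol had become a date (0.174% to 0.236% of counts) were left out. Ccdc115 held 6.67% to 16.4% of the counts of a library. Genes were kept by filterByExpr (13453), scaled by TMM and compared with edgeR 4.0.16 (robust glmQLFit and glmQLFTest, R 4.3.3), with p-values adjusted by Benjamini-Hochberg over all tested genes at 0.05. The SE is the log2 fold change over the square root of F. Pipelines were tested on simulated data. For the edgeR fit these had less spread between libraries than the real counts, whose common biological coefficient of variation was 0.749. The simulation therefore does not show how the fit behaves at that spread. Lengths and positions came from GENCODE M21 (GRCm38, the assembly of mm10), which matched 16410 of 17261 genes with a count, and promoters from RefSeq (GRCm38.p6). Msmo1 stands under its older symbol Sc4mol. The tag read as a lane is not defined in the labels.

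Alternatives were DESeq2 1.42.0, limma 3.58.1 (voom with quality weights, and on the deposited log2 values), RLE and upper-quartile factors, other filters, a term for replicate number, for lane or for sex, no Ccdc115, and leaving out each library. Members and lists were chosen with earlier results of these data known. Every member is named; of the other pathway genes, those past the threshold and the 4 most abundant were to be named, in each list. The promoters printed were chosen after the values were seen.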

Additional observations from a re-analysis of the deposited data

How the results depend on the processing

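The count of called members was 1, and 5 with DESeq2, 2 with limma-voom and 0 with the deposited log2 values, the replicate block or lane as a term; it was 0 to 1 when single libraries were left out. Over all genes 229 were called, 121 higher and 108 lower. DESeq2 called 1513 (947 higher, 566 lower), a filter of 5 CPM in 3 libraries 359 (190 and 169), the deposited log2 values 142 (76 and 66), the replicate block 3 (3 and 0) and lane as a term 0 (0 and 0), with 1169 at an unadjusted p under 0.05; limma-voom called 170 lower. With single libraries left out there were 7 to 171 calls, 6 to 105 higher and 1 to 88 lower. The replicate numbers are not said to pair the libraries. Correlations of same-numbered deviations were -0.0367 to -0.00641 over 3 pairs, beside -0.0725 to 0.0522 over all pairs of a tumour and a naive library. With so few libraries these values cannot exclude a pairing. No naive library shares the number of tumour replicate 4, so that the block leaves this library out of the group comparison. The call of Scarb1 was lost with the block, and also when tumour replicate 4 was left out (adjusted p = 0.0769 in edgeR). Counts over the synthesis enzymes were chosen after seeing the data. Those with a log2 fold change above 0 numbered 12 to 15 in all alternatives. Synthesis enzymes higher at an unadjusted p under 0.05 in edgeR numbered 6. They numbered 3 with the replicate block, 1 with lane as a term and 3 to 6 without single libraries. Of all 13453 tested genes, 1224 were higher at such a p. There were 774 with the replicate block and 495 with lane as a term. For fits without single libraries no such number over all genes was taken. The median log2 fold change of the mevalonate arm was 0.40 with the deposited values, 1.25 with lane as a term and 1.25 within lane 8 (chosen after the data were seen), and 0.59 to 0.81 without single libraries; for the sterol arm it was 0.33 with the deposited values and 0.44 to 1.03, and for all synthesis enzymes 0.36 and 0.58 to 0.81. Without single libraries it was -0.19 to 0.01 for sterol sensing, 0.38 to 0.63 for uptake and transport and -0.48 to -0.19 for efflux and LXR.

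The members that changed sign had log2 fold changes near 0 or a wide spread. With limma-voom the values were -0.11 for Fdft1, 0.60 for Lss, 0.28 for Tm7sf2, 0.16 for Srebf2 and -0.18 for Npc1. With upper-quartile factors they were 0.043 for Lss, 0.015 for Srebf2 and 0.010 for Scap. With the deposited values they were 0.050 for Lss and -0.063 for Npc1. With the replicate block they were -0.32 for Fdft1, -0.32 for Dhcr7, 0.047 for Scap and -0.50 for Npc1. With lane as a term they were -0.27 for Fdft1, 0.0049 for Srebf2 and -1.37 for Npc1. Without single libraries the ranges were -0.35 to 0.42 for Fdft1, -0.55 to 0.32 for Lss, -1.03 to 0.046 for Tm7sf2, -0.38 to 0.48 for Srebf2, -0.21 to 0.21 for Scap, -0.47 to 0.29 for Npc1 and -0.12 to 0.18 for Npc2. The cause of these changes was not tested. With lane as a term the groups are compared within lane 8 alone, which has 1 library of each. Idi1 gave no value under the filter of 5 CPM. With the longest transcript in place of all exons, the naive mean TPM moved by more than its SD for 7 of 30 members, among them Scarb1 (15.3 TPM) and Dhcr7 (2.79 TPM). Ranks by TPM counted so, after seeing the data, were 11 in tumour and 4 in naive skin for Nr1h3, 12 and 22 for Sqle, and 6 and 11 for Hmgcs1. Mvd and Tm7sf2 had 3 and 2 counts in naive replicate 1, which has the highest total of the 7 libraries. Dhcr7 had 14 in tumour replicate 2, and Lss had 55 in naive replicate 2. Genes with a count numbered 13441 in naive replicate 1, the fewest of the 7 libraries. They numbered 13842 in tumour replicate 2, the fewest of the tumour libraries, and 14000 in naive replicate 2, between the other naive libraries. The cause of these low counts was not tested.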
